A study of Bos taurus with 16 samples.

Results

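Interferon-stimulated genes are the antiviral and immune genes that a cell switches on after an interferon signal. A list of 41 of them was followed by gene symbol in the table of gene counts. Of the 41 genes, 39 were among its 28786 genes, and BST2 and GBP2 were not analysed here. USP18, the protease that removes ISG15 from proteins, had 4 counts in the PPARα-agonist library of cow 567 and 0 in the other 11 libraries, so it did not pass the filter on low counts (a count above 4 in at least 1 library). The remaining 38 were tested among 19824 genes. OAS1X and OAS1Z passed the filter through 2 of the 4 groups and OAS2 through 3, and the other 35 passed it in every group.

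The material was precision-cut liver slices, thin living slices of liver that keep hepatocytes beside Kupffer cells, endothelial cells and lymphocytes. They came from early-postpartum primiparous Jersey cows and were kept for 18 h in synthetic medium (William's Medium E) with 0.8% DMSO. The control, labelled Untreated, had the solvent and no agonist. The other slices received 100 µM WY-14643, a PPARα agonist, 50 µM GW-501516, a PPARδ agonist, or 100 µM rosiglitazone, a PPARγ agonist. PPARs are fatty acid-activated nuclear receptors, and the design asks how an agonist of each isotype changes the liver transcriptome. Each of cows 581, 576 and 567 gave 1 library to each group, 12 libraries in all, and duplicate slices were pooled within a library, so the spread is that between 3 cows. One dose of each agonist was used and the doses differ, so dose and isotype cannot be told apart. The remaining cow (574), left out by the study for degraded RNA, enters no comparison here.

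Interferons bind receptors on the cell surface and act through JAK kinases to activate transcription factors, among them ISGF3, of which STAT2 and IRF9 are parts. ISGF3 and the interferon regulatory factors then drive a wide set of genes that sense foreign RNA and DNA, block its translation or degrade it, and feed back on the signal. In liver both hepatocytes and immune cells carry this response, and a low tonic level is present without infection.

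Libraries held 3081981 to 10227330 counts assigned to genes (median 5065406), of which the 39 genes took 2726 to 17507. The 18S ribosomal RNA gene RN18S1 took 11.9% to 16.4% of the gene counts in 3 libraries whose column names carry an extra mark (PPARα agonist of cows 581 and 567, PPARδ agonist of cow 581), which are also the 3 deepest, and 33.1% to 63.8% in the other 9. The PPARδ-agonist library of cow 576 stood apart, with 63.8% of its counts on RN18S1 and 9993 genes detected against 12933 to 17461 elsewhere. It held the lowest value of 14 of the 38 genes, and the share of all genes lowest in it was not counted. Hepatocyte markers were present in every library, with all 14 in the table and a summed level between 2203 and 12214 CPM (counts scaled to a common library size, with TMM factors between libraries).

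Interferon-stimulated genes were lower in slices treated with the PPARγ agonist. The summed level of the 38 tested genes was 1335 ± 132 CPM (SD, n = 3 cows) in the control. It was 828 ± 153 CPM with the PPARγ agonist, against 1494 ± 149 and 1266 ± 363 CPM in slices given the PPARα and the PPARδ agonist. Without ISG20, the one gene called higher, the sum ran from 1175 to 1441 CPM in the control and from 519 to 742 CPM with the PPARγ agonist. The PPARα libraries then lay between 1111 and 1640 CPM and the PPARδ libraries between 634 and 1372, and both of these groups overlapped the control.

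**Figure D1:**
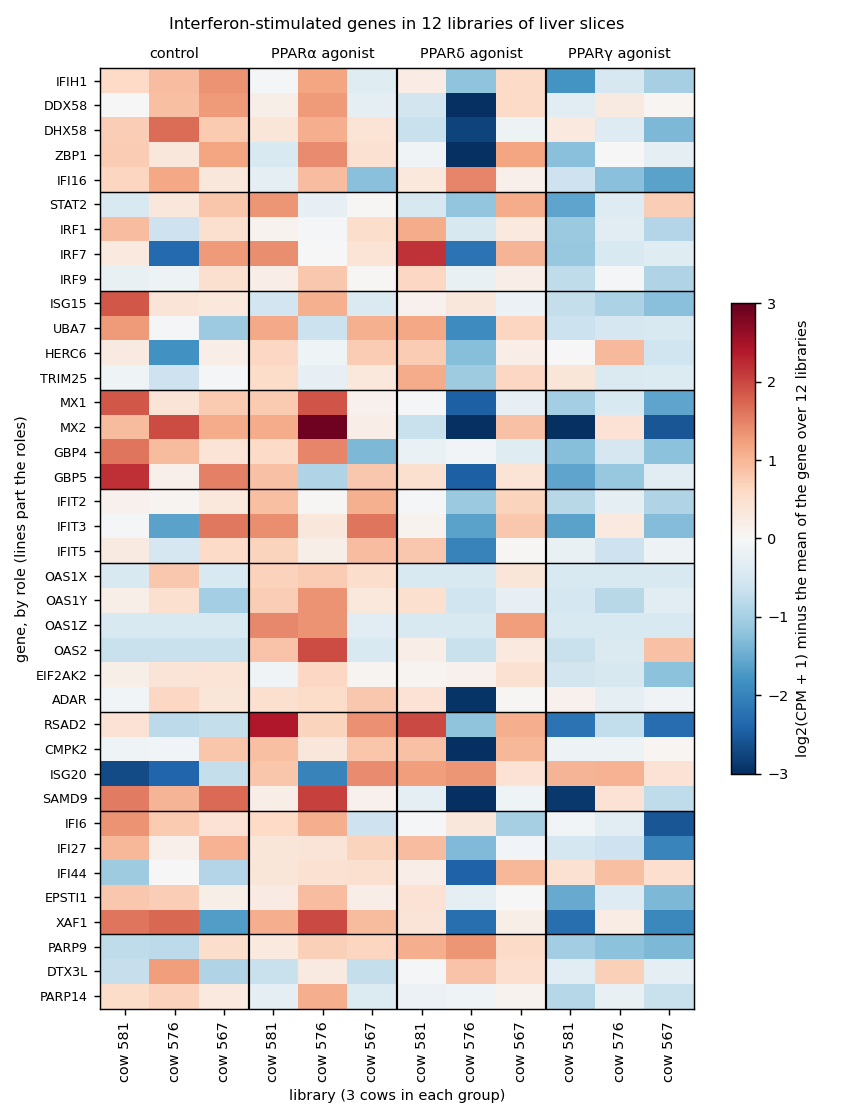
Level of the 38 tested genes (rows, ordered by role) in the 12 libraries (columns, by group and cow), as log2(CPM + 1) minus the mean of each gene over the 12 libraries; red is above and blue below that mean. The PPARγ columns are blue for most rows and red for ISG20, and the PPARδ column of cow 576 holds the lowest value of 14 genes, a count not made over all genes.

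The median log2 fold change of the 38 genes against control was −1.14 with the PPARγ agonist, where all 19824 genes had a median of 0.08. It was −0.22 with the PPARδ agonist (all genes 0.00) and 0.29 with the PPARα agonist (all genes 0.12). With genes that had 0 counts in a whole group set at the limit that 3 counts over that group allow, the PPARγ median was −1.16 and the other medians did not move. Within each cow the median log2 ratio of (CPM + 1) for the PPARγ agonist came to −1.20 for cow 581, −0.61 for 576 and −1.37 for 567. For the PPARδ agonist it was −0.05, −1.05 and −0.17, lowest in cow 576, whose library stands apart. The sign of the PPARα median depended on genes with low counts. Over the 28 of the 38 genes with the highest mean CPM, the median log2 fold change against control was −0.07 with the PPARα agonist. For these 28 it was −0.16 with the PPARδ and −1.11 with the PPARγ agonist. All genes above the same cutoff on mean CPM had medians of 0.19, 0.09 and 0.08.

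By edgeR's quasi-likelihood test with treatment only, an adjusted p below 0.2 over all genes was called. With the PPARγ agonist 2 of the 38 genes fell, MX1 and EPSTI1, against 0.303% of all genes, and 1 rose, ISG20, against 0.328%. With the cow as a term in the fit, which fits the design because each cow gave all 4 slices, 11 of the 38 fell (28.9%) against 1.28% of all genes, and ISG20 rose against 1.58%. DESeq2 called 9 lower (23.7%) against 0.999% of all genes. The PPARδ agonist called ISG20 alone as higher (0.252% of all genes), and with the cow as a term MX1 and SAMD9 also fell (0.636% of all genes), with ISG20 again higher (1.39%). The PPARα agonist called ISG20 alone as higher in either fit, against 0.424% of all genes and 1.85% with the cow as a term. With treatment only, a stricter filter on low counts (filterByExpr) and a fit of all 16 libraries, cow 574 included, each gave 0 calls among the 38 genes for all 3 agonists.

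The count with treatment only rested on single libraries. In each refit here and in the next paragraph the calls over all genes can move too. Their shares are not given, so a change in these genes cannot be told apart from one over all genes. With the PPARγ agonist it was 0 without the control of cow 581, 1 without the PPARγ library of cow 581 or of cow 567, and 14 without the PPARδ library of cow 576. It was 8 without either the PPARα or the PPARδ library of cow 581, and 9 and 10 without the PPARα libraries of cows 576 and 567. Without all libraries of a cow it was 1 for cow 581, 19 for cow 576 and 1 for cow 567. With the cow as a term the count of 12 became 5 without the PPARγ library of cow 581 or the control of cow 567, and 7 without the PPARγ library of cow 567, and by cow 2, 19 and 3. With any 1 library left out from that fit MX1 and ISG20 stayed called, while each of the other 10 genes was lost at least once.

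Leaving out cow 576 also moved the PPARα and PPARδ counts. Without its libraries the PPARα agonist gave 6 lower genes (MX1, ISG15, IFIH1, IFI16, GBP4, SAMD9) and 2 higher (RSAD2, ISG20) in place of 1 call, and the PPARδ agonist gave 6 calls, 3 lower and 3 higher. The PPARα library of cow 576 held the highest value of 11 of the 38 genes, and of 7.94% of all genes tested. It also held the highest macrophage marker sum (1727 CPM), the highest neutrophil marker sum (2131 CPM) and the lowest hepatocyte marker sum (2203 CPM) of the 12 libraries. The part of cell makeup in these values was not tested. Without the control of cow 581 or of cow 576 both counts were 0. The PPARα count was 2 without the PPARδ library of cow 576 and 0 without cow 581. The PPARδ count was 3 without the PPARα library of cow 567 or without cow 567, and 2 without the PPARα library of cow 581 or 576 or the PPARδ library of cow 581. With the cow as a term the PPARα count of 1 became 2 without the PPARδ library of cow 576 and 10 without cow 576. The PPARδ count of 3 became 1 without the control of cow 581 or of cow 567 or without cow 581, 5 without the PPARδ library of cow 567 and 6 without cow 576. The PPARγ median stayed between −0.96 and −1.29 in the refits with treatment only, the one without cow 581 being nearest to 0. It was not taken in the refits with the cow as a term.

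Counts that need no fit were also compared. A gene at 0 counts in a control library cannot lie below that control. The control of cow 581 detected 12933 genes while 19824 were tested, so the shares over all genes include such genes. No share over genes of like level was counted. All 3 PPARγ libraries were below all 3 control libraries for 17 of the 38 genes (44.7%), which 6.01% of all genes showed. The PPARδ agonist gave 8 such genes (21.1%) against 4.77%, and the PPARα agonist gave 0 against 4.73%. In each of the 3 cows the PPARγ slice was below that cow's own control for 22 genes (57.9%), against 11.6% of all genes. The PPARδ slice was below it in each cow for 14 genes (36.8%), against 10.3% of all genes, and the PPARα slice was above it for 12 (31.6%), against 18.4%. Among these 12 were OAS1Z and OAS2, which had 0 counts in every control and so could not lie below it. The other way, ISG20 and IFI44 were above the control in all PPARγ libraries (8.7% of all genes). In the shares of variance of log2 CPM, treatment took a median of 48.4% over the 38 genes and cow 12.0%. With 4 groups and 3 cows, treatment takes the larger share on average even without an effect. Over all genes the medians were 27.3% and 18.2%, and they were the same with other size factors. Any gene counted in a lone library has these shares by construction, and the filter on low counts lets such genes through. The all-gene medians are therefore no background for the 38 genes, and no comparison is drawn from them. The treatment share was highest for PARP9 (85.0%), EPSTI1 (76.4%) and EIF2AK2 (75.7%). These shares are a description with no test.

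**Figure D2:**
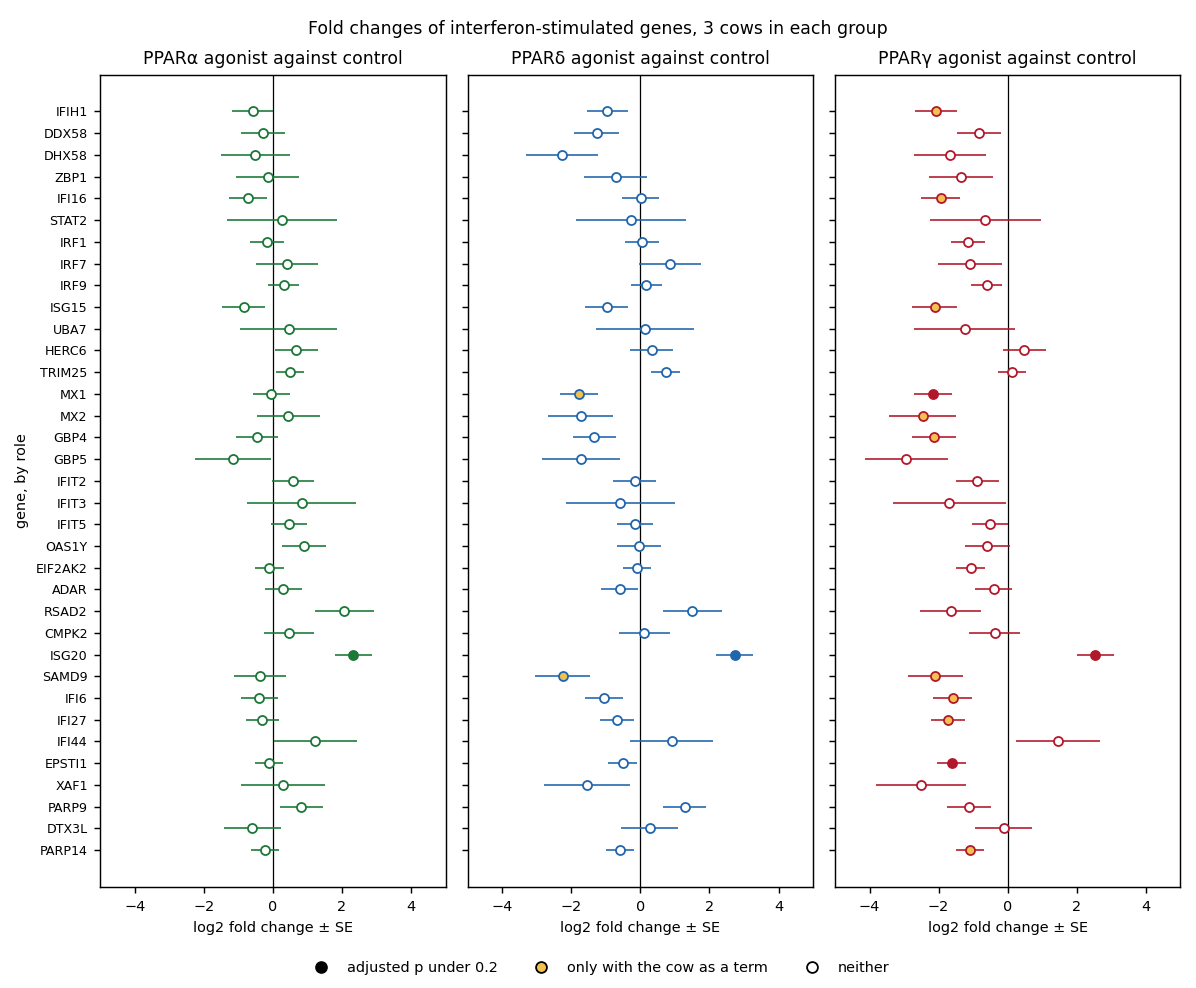
Log2 fold change ± SE of 35 of the 38 genes in each agonist group against control (3 cows in each group, treatment-only fit); filled points have an adjusted p below 0.2, yellow points only with the cow as a term, and OAS1X, OAS1Z and OAS2 are not drawn because a whole group was at 0 counts. In the PPARγ panel most points lie left of 0, with MX1 and EPSTI1 filled on the left and ISG20 filled on the right at 2.53.

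Of the 5 nucleic acid sensors none passed with treatment only, and 2 fell with the PPARγ agonist with the cow as a term. IFIH1 encodes MDA5, a receptor for long double-stranded RNA. Its level was 32.6, 40.7 and 55.1 CPM in the controls of cows 581, 576 and 567, and 5.41, 14.8 and 10.0 CPM with the PPARγ agonist. The groups did not overlap, and the highest PPARγ library was below the lowest control. The log2 fold change was −2.08 ± 0.61 (SE), with an adjusted p of 0.232 by edgeR that became 0.0293 with the cow as a term. The PPARα libraries held 20.7, 48.8 and 16.2 CPM and the PPARδ libraries 24.9, 8.58 and 32.1 CPM, where log2 fold changes of −0.59 ± 0.59 and −0.96 ± 0.59 did not pass.

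IFI16, a sensor of DNA, had 45.4, 65.6 and 36.7 CPM in the controls and 18.4, 11.5 and 8.81 CPM with the PPARγ agonist, again without overlap. This gave a log2 fold change of −1.94 ± 0.56 (edgeR adjusted p = 0.215, and 0.0246 with the cow as a term). With the PPARδ agonist IFI16 stayed at 35.7, 81.2 and 31.9 CPM, a log2 difference of 0.01 ± 0.54. With the PPARα agonist it was 23.2, 55.1 and 11.5 CPM. DDX58, which encodes RIG-I, DHX58, its relative LGP2, and ZBP1, a sensor of Z-form nucleic acid, did not pass with any agonist. Their PPARγ log2 fold changes were −0.84 ± 0.64, −1.67 ± 1.03 and −1.34 ± 0.93, and those with the PPARδ agonist were −1.27 ± 0.65, −2.27 ± 1.05 and −0.71 ± 0.92. DHX58 was below every control in all PPARδ and all PPARγ libraries, with 0 counts in the PPARδ library of cow 576.

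None of STAT2, IRF1, IRF7 and IRF9 passed with any agonist in either fit. IRF9, the DNA-binding part of ISGF3, had 39.4, 41.02 and 63.9 CPM in the controls and 26.5, 44.2 and 24.06 CPM with the PPARγ agonist, so the groups overlapped in cow 576. The PPARα libraries of IRF9 held 52.7, 80.3 and 47.1 CPM and the PPARδ libraries 70.9, 38.9 and 52.3 CPM. IRF1, itself induced by interferon-γ, had a PPARγ log2 fold change of −1.16 ± 0.50 (95% interval −2.16 to −0.15, adjusted p = 0.663 by edgeR) and was above its own control only in cow 576. STAT2 had at most 6.50 CPM in any library, and IRF7 ranged from 0.837 to 40.6 CPM.

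ISG15 is the ubiquitin-like protein that is joined to other proteins during the interferon response. It stood at 68.0, 24 and 22.8 CPM in the controls and at 10.5, 8.87 and 6.91 CPM with the PPARγ agonist. All PPARγ libraries were below all controls, and the control of cow 581 was far above the other controls. The log2 fold change was −2.12 ± 0.65 (edgeR adjusted p = 0.265, and 0.0731 with the cow as a term). The PPARα libraries had 11.7, 38.9 and 13.0 CPM and the PPARδ libraries 19.6, 23.1 and 15.7 CPM, and neither difference passed.

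None of the enzymes around ISG15 passed. TRIM25, a ubiquitin ligase that activates RIG-I, had 131.7, 92.9 and 138.3 CPM in the controls, and 183.8, 105.4 and 107.9 CPM with the PPARγ agonist. Its PPARγ log2 difference was 0.13 ± 0.41 (95% interval −0.70 to 0.96). TRIM25 was 209.4, 121.9 and 179.5 CPM with the PPARα agonist and 310.0, 68.3 and 222.1 CPM with the PPARδ agonist. UBA7, the activating enzyme for ISG15, and HERC6, an ISG15 ligase in the mouse, did not pass, at −1.24 ± 1.45 and 0.48 ± 0.62 with the PPARγ agonist.

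Of the 4 antiviral GTPases 1 fell with the PPARγ agonist, and 3 with the cow as a term, with a median log2 fold change of −2.31. MX1, a dynamin-like GTPase that traps viral nucleoproteins, had 137.3, 48.6 and 64.8 CPM in the controls and 17.6, 26.6 and 11.7 CPM with the PPARγ agonist. The groups did not overlap, and MX1 fell by 2.16 ± 0.56 on the log2 scale (edgeR adjusted p = 0.103, and 0.000847 with the cow as a term). The call with treatment only was lost without the control of cow 581 (adjusted p = 0.817) and without the PPARγ library of cow 581 (0.339) or of cow 567 (0.365), and also with filterByExpr (0.421) and with all 16 libraries (1). With the PPARδ agonist MX1 was 35.5, 5.94 and 30.98 CPM, also below every control. That log2 fold change was −1.78 ± 0.55 (adjusted p = 0.31 by edgeR, 0.0226 with the cow as a term and 0.157 by DESeq2). The PPARα libraries, at 63.9, 138.7 and 40.2 CPM, overlapped the control with a log2 difference of −0.05 ± 0.53.

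MX2, its neighbour on the chromosome and of the same protein family, had 18.7, 38.2 and 20.8 CPM in the controls. The PPARγ libraries held 0.270, 12.7 and 0.715 CPM, from 1, 79 and 3 counts, and lay below all controls. This gave a log2 fold change of −2.45 ± 0.97 (edgeR adjusted p = 0.586), and with the cow as a term it was −3.19 (adjusted p = 0.0042). With the PPARδ agonist MX2 had 5.39, 0 and 17.8 CPM, the 0 being in the library that stands apart, and with the PPARα agonist 20.8, 75.2 and 10.5 CPM.

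GBP4, a guanylate-binding protein induced by interferon-γ, had 58.5, 37.1 and 25.2 CPM in the controls and 7.03, 12.9 and 7.38 CPM with the PPARγ agonist. Its log2 fold change was −2.13 ± 0.64 (edgeR adjusted p = 0.26, and 0.0438 with the cow as a term). The PPARδ libraries of GBP4, at 15.95, 17.5 and 14.4 CPM, also lay below every control, with a log2 fold change of −1.34 ± 0.63 that did not pass. The PPARα libraries held 28.1, 53.0 and 6.71 CPM. GBP5 did not pass in edgeR, at −2.94 ± 1.19 with the PPARγ agonist, and was called lower by DESeq2 (adjusted p = 0.188).

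The IFIT proteins bind RNA that lacks the marks of the host. None of IFIT2, IFIT3 and IFIT5 passed with any agonist. IFIT5 had 45.4, 25.95 and 55.8 CPM in the controls, 59.7, 42.3 and 72.0 CPM under the PPARα agonist, 66.3, 8.58 and 38.2 CPM under the PPARδ agonist and 31.9, 24.04 and 33.1 CPM under the PPARγ agonist. Each PPARα slice was above its own control and each PPARγ slice below it, yet the groups overlapped. IFIT2 did not overlap, at 9.05 to 14.2 CPM with the PPARγ agonist against 18.7 to 22.3 CPM in the control, with a log2 fold change of −0.88 ± 0.63.

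EIF2AK2 encodes PKR, which stops translation on binding double-stranded RNA. Its controls held 62.5, 71.7 and 73.7 CPM, and the PPARγ libraries 37.0, 39.2 and 22.9 CPM, without overlap. The log2 fold change was −1.07 ± 0.42 (95% interval −1.93 to −0.21), which did not pass in edgeR (adjusted p = 0.596, and 0.31 with the cow as a term) and passed in DESeq2 (0.111). The PPARα libraries held 51.0, 84.7 and 58.1 CPM and the PPARδ libraries 58.3, 60.4 and 75.6 CPM. ADAR, which edits double-stranded RNA, and OAS1Y did not pass.

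The other oligoadenylate synthetases, which activate RNase L, were near the limit of counting. OAS2 had 0 counts in all 3 controls and 23, 27 and 2 counts with the PPARα agonist. OAS2 had 7, 0 and 5 counts with the PPARδ agonist and 0, 1 and 8 with the PPARγ agonist, and no difference passed. OAS1Z also had 0 counts in every control and every PPARγ library, and 34, 13 and 1 with the PPARα agonist. OAS1X had 0, 5 and 0 counts in the controls and 15, 7 and 12 with the PPARα agonist. The PPARα libraries of cows 581 and 567 were the deepest, and the part of depth in these counts was not tested.

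ISG20, an exonuclease that degrades RNA, was the one gene called higher, and it was called with every agonist. It had 15.5, 19.5 and 64.1 CPM in the controls and 215.1, 220.1 and 142.9 CPM with the PPARγ agonist. Every PPARγ library was above every control, and ISG20 rose by a log2 fold change of 2.53 ± 0.54 (edgeR adjusted p = 0.0288, and 5.16e-10 with the cow as a term). With the PPARδ agonist ISG20 was 253.8, 266.0 and 142.6 CPM, again without overlap, and rose by 2.73 ± 0.54 (edgeR adjusted p = 0.0241, and 2.5e-11 with the cow as a term). Without the control of cow 581 the adjusted p with treatment only was 0.359 for the PPARγ and 0.429 for the PPARδ agonist, and without the control of cow 576 it was 0.208 for the PPARδ agonist. With filterByExpr it was 0.535, 0.432 and 0.329 for ISG20 with the PPARα, PPARδ and PPARγ agonists. With all 16 libraries it was 1 for each, and with the cow as a term in that fit 0.0155, 0.000385 and 0.00225.

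The PPARα slices held 189.7, 25.4 and 282.5 CPM of ISG20, high in cows 581 and 567, whose PPARα libraries carry the mark, and close to the control in cow 576. Each was above the control of its own cow, by log2 ratios of (CPM + 1) of 2.12, 0.36 and 3.53. This gave a log2 fold change of 2.32 ± 0.53 (edgeR adjusted p = 0.0684, and 4.49e-07 with the cow as a term). With the 3 marked libraries left out, 1 PPARα library remained (cow 576, above its own control), which was assumed to vary like the other groups and was set against the controls of all 3 cows. The log2 fold change of that fit, −0.35 (edgeR adjusted p = 1), has no replicate in the PPARα group. Without the control of cow 581 it was 1.93 (adjusted p = 0.701) and without that of cow 576 it was 1.98 (0.354). No difference between agonists in ISG20 passed in edgeR. The log2 differences were 0.22 ± 0.50 for PPARγ against PPARα, −0.20 ± 0.50 for PPARγ against PPARδ and 0.41 ± 0.50 for PPARδ against PPARα, and their 95% intervals reached from −0.80 to 1.23, from −1.21 to 0.82 and from −0.61 to 1.43.

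RSAD2 encodes viperin, an enzyme that makes a chain-terminating nucleotide. It had 10.3, 3.91 and 4.16 CPM in the controls, 43.6, 12.4 and 20.6 CPM under the PPARα agonist, 32.0, 2.64 and 16.8 CPM under the PPARδ agonist and 0.811, 4.03 and 0.715 CPM under the PPARγ agonist. Every PPARα library was above every control, but the log2 fold change of 2.07 ± 0.87 did not pass (edgeR adjusted p = 0.567, and 0.315 with the cow as a term). Neither did the PPARγ difference from control, −1.66 ± 0.89. CMPK2, the nucleotide kinase beside RSAD2 on the chromosome, did not pass, at 0.46 ± 0.74 with the PPARα agonist and −0.37 ± 0.74 with the PPARγ agonist.

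SAMD9, a restriction factor for poxviruses, had 38.2, 25.95 and 42.3 CPM in the controls. It was 9.99, 0.660 and 11.3 CPM with the PPARδ agonist and 0.811, 16.9 and 6.91 CPM with the PPARγ agonist, both below every control. The log2 fold changes were −2.25 ± 0.80 and −2.09 ± 0.80. They passed only with the cow as a term (edgeR adjusted p = 0.113 for PPARδ and 0.0483 for PPARγ, against 0.466 and 0.543 without it). The PPARα libraries, at 14.4, 54.4 and 13.7 CPM, lay on both sides of the control.

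**Figure D3:**
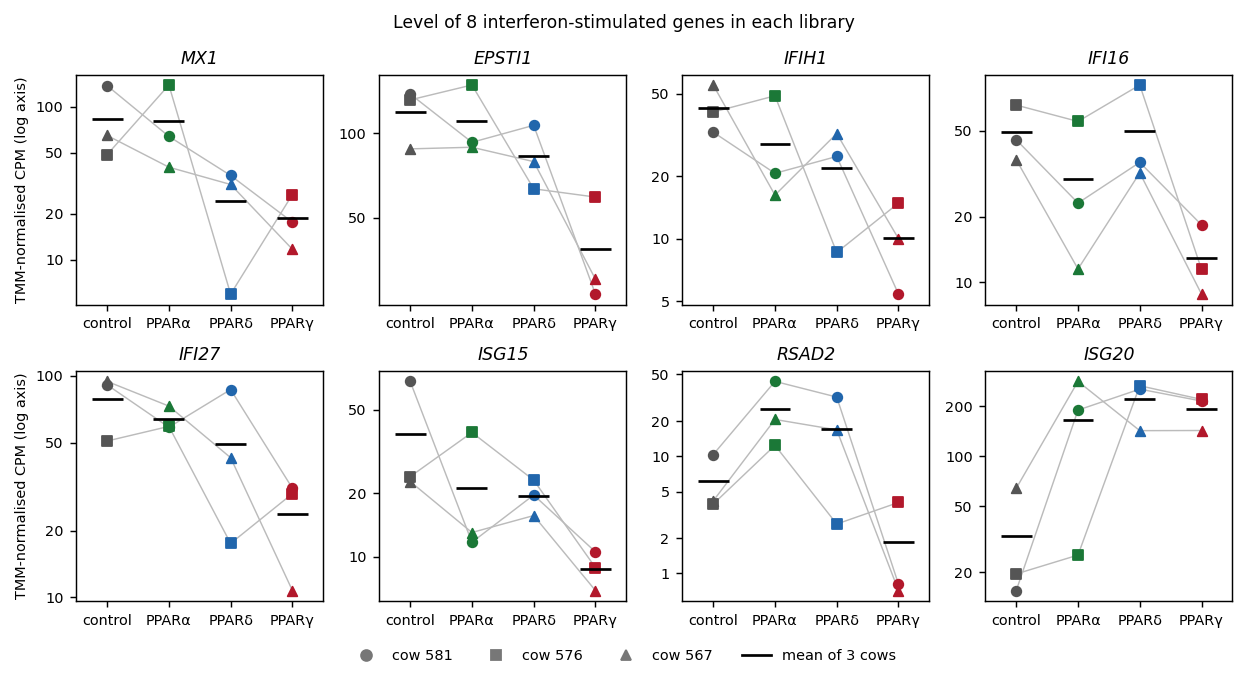
TMM-normalised CPM (log axis) of 8 genes in each library; points are single libraries, marked by cow, grey lines join the libraries of a cow and black bars are means of 3 cows. MX1, EPSTI1, IFIH1, IFI16, IFI27 and ISG15 lie below every control in all PPARγ libraries, RSAD2 is highest with the PPARα agonist, and ISG20 lies above every control with the PPARδ and PPARγ agonists.

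EPSTI1, an interferon-induced gene named for the interaction of epithelium and stroma, fell with the PPARγ agonist. The controls had 137.7, 131.2 and 87.9 CPM and the PPARγ libraries 26.8, 59.2 and 30.3 CPM, without overlap. The log2 fold change was −1.61 ± 0.42 (edgeR adjusted p = 0.112, 0.00389 with the cow as a term and 0.0117 by DESeq2). The call with treatment only was lost without the control of cow 581 (0.521) or of cow 576 (0.348), and without the PPARγ library of cow 581 (0.703) or of cow 567 (0.477), and also with filterByExpr (0.254) and with all 16 libraries (1). With the PPARα agonist EPSTI1 was 92.7, 148.2 and 89.0 CPM, and with the PPARδ agonist 106.5, 63.4 and 79.1 CPM, both overlapping the control.

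IFI27 and IFI6 encode small membrane proteins of one family. IFI27 had 91.1, 50.8 and 94.5 CPM in the controls and 31.1, 29.4 and 10.7 CPM with the PPARγ agonist, without overlap. Its log2 fold change was −1.73 ± 0.50 (edgeR adjusted p = 0.215, and 0.0147 with the cow as a term). The PPARα libraries of IFI27 held 58.6, 59.1 and 73.1 CPM and the PPARδ libraries 86.8, 17.5 and 42.7 CPM. IFI6 had 89.5, 60.6 and 47.2 CPM in the controls and 32.7, 27.4 and 5.00 CPM with the PPARγ agonist, a log2 fold change of −1.60 ± 0.56 (edgeR adjusted p = 0.441, and 0.00999 with the cow as a term). IFI6 was also below every control with the PPARδ agonist, at 34.0, 43.9 and 16.8 CPM, where −1.06 ± 0.55 did not pass. The PPARα libraries of IFI6, at 53.0, 74.6 and 22.1 CPM, overlapped the control.

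IFI44 was the other gene above the control in every PPARγ library, at 6.49 to 9.03 CPM against 1.59 to 4.47 CPM. Its log2 difference of 1.46 ± 1.21 did not pass (edgeR adjusted p = 0.807). XAF1, an antagonist of the apoptosis inhibitor XIAP, did not pass either, at −2.52 ± 1.30 with the PPARγ agonist. PARP14, an ADP-ribosyltransferase, had 118.6, 130.04 and 99.1 CPM in the controls and 44.1, 68.4 and 50.5 CPM with the PPARγ agonist, without overlap. Its log2 fold change was −1.09 ± 0.42 (edgeR adjusted p = 0.552, and 0.15 with the cow as a term). PARP14 stood at 64.9, 172.2 and 60.7 CPM with the PPARα agonist and at 70.7, 73.3 and 87.1 CPM with the PPARδ agonist.

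PARP9 and DTX3L form a complex that takes part in the antiviral response. PARP9 had 8.75, 8.65 and 22.8 CPM in the controls, 34.4, 40.3 and 23.8 CPM with the PPARδ agonist and 7.03, 6.13 and 5.48 CPM with the PPARγ agonist. The PPARδ libraries were all above and the PPARγ libraries all below the control, and neither difference from control passed (1.29 ± 0.63 and −1.11 ± 0.64). DTX3L had a PPARγ log2 difference of −0.12 ± 0.82.

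The agonists were also compared with each other. PPARγ against PPARα gave 2 lower genes of the 38, MX1 (−2.11 ± 0.55, edgeR adjusted p = 0.174) and RSAD2 (−3.72 ± 0.93, edgeR adjusted p = 0.135), against 0.288% of all genes. MX2, IFI27 and EPSTI1 were also called with the cow as a term, against 0.842% of all genes. For 21 of the 38 genes (55.3%) every PPARγ library was below every PPARα library, which 7.54% of all genes showed. DESeq2 called MX1, EPSTI1 and PARP9 lower, against 0.424% of all genes, and gave no adjusted p for RSAD2. Of 5 neutrophil markers tested, 4 were called lower in the same comparison (0.288% of all genes) and higher with the PPARα agonist against control (0.424%). These were MMP9, S100A8, S100A9 and S100A12, and with the cow as a term MMP9 was not called against control. The neutrophil marker sum with the PPARα agonist was high in cow 576 alone (2131 CPM) and within the control range in the other cows. The part of these markers in the differences was not tested. The count of 2 was 0 without the PPARγ library of cow 581 or of cow 567, 1 without the control of cow 581, the control of cow 567 or the PPARα library of cow 576, 4 without the PPARγ library of cow 576 or the PPARα library of cow 567, and 8 without the PPARδ library of cow 576.

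PPARγ against PPARδ gave 0 lower genes by edgeR with treatment only (0.0454% of all genes), with 8 of the 38 lower at an unadjusted p below 0.05 against 2.41% of all genes. With the cow as a term IFI16 (adjusted p = 0.108) and PARP9 (0.108) were lower, against 0.262% of all genes. DESeq2 called IFI16, RSAD2 and PARP9 lower, against 0.272%. PPARδ against PPARα gave 0 lower by edgeR (0.0908% of all genes) and 0 by DESeq2, with 3 lower at an unadjusted p below 0.05 against 2.51% of all genes, and MX1 lower with the cow as a term (adjusted p = 0.0562), against 0.575% of all genes. With treatment only, IFI16 was called for PPARγ against PPARδ without the PPARα library of cow 576, and PARP9 and RSAD2 without the PPARδ library of cow 576. MX1 was called for PPARδ against PPARα without the PPARα library of cow 581 or of cow 567 or the PPARδ library of cow 581. The fold changes of the 3 agonists against control share the same 3 control libraries.

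Upstream of these genes, interferon transcripts were nearly absent. Of 13 interferon genes in the table, 10 had 0 counts in all 12 libraries, among them IFNB1. IFNG had 14 counts in all, 13 of them with the PPARα agonist, IFNE had 5 and IFNT2 had 1. Among 11 genes for receptors and the signalling below them, none was called with treatment only. IFNAR2, a chain of the type I receptor, had 42.6, 53.0 and 45.8 CPM in the controls and 8.11, 17.3 and 20.7 CPM with the PPARγ agonist, and its log2 fold change of −1.61 ± 0.63 passed with the cow as a term (edgeR adjusted p = 0.143, against 0.579 without). With the cow as a term 1.28% of all genes were called lower with the PPARγ agonist. IFNAR1, the other chain, did not pass, at −0.46 ± 0.84 with the PPARγ agonist.

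Of 9 feedback inhibitors, SOCS3, which blocks JAK kinases, rose with the PPARδ agonist. It had 5.97, 29.6 and 41.8 CPM in the controls and 210.9, 34.7 and 86.9 CPM with the PPARδ agonist, where each slice was above its own control and the groups overlapped. This gave a log2 fold change of 2.10 ± 0.55 (edgeR adjusted p = 0.172, and 0.00379 with the cow as a term). With the PPARα agonist SOCS3 passed with the cow as a term (1.65 ± 0.54, adjusted p = 0.0292, against 0.335), and SOCS1 passed with the PPARδ agonist (1.67 ± 0.60, 0.163 against 0.467). With the PPARγ agonist SOCS3 differed by 0.09 ± 0.53. Of all genes 0.252% were called higher with the PPARδ agonist and treatment only. With the cow as a term these shares were 1.39% with the PPARδ and 1.85% with the PPARα agonist.

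Of 23 further genes for nucleic acid sensing, none was called with treatment only. SAMHD1, which destroys nucleotides, and NLRC5, an inducer of MHC class I, were lower with the PPARγ agonist with the cow as a term (adjusted p = 0.157 and 0.138), at −1.33 ± 0.55 and −2.62 ± 0.88. A wider list of 62 other interferon-stimulated genes had a PPARγ median log2 fold change of −0.44, against −1.14 for the 38, and 42 of the 62 were below 0 against 42.6% of all genes. In it LGALS9 (−1.95 ± 0.52, edgeR adjusted p = 0.129), IDO1, which degrades tryptophan (−2.48 ± 0.63, 0.0953), and CD274, the ligand PD-L1 (−1.78 ± 0.49, 0.148), fell with the PPARγ agonist. CASP1, IFI44L, APOL3, LAP3 and IFI30 were also lower with the cow as a term, and CASP8 was higher (1.27 ± 0.38, adjusted p = 0.0117, against 0.236). Of all genes the PPARγ agonist called 0.303% lower with treatment only, and 1.28% lower and 1.58% higher with the cow as a term. The PPARα and PPARδ agonists called none of these 23 and 62 genes with treatment only. With the cow as a term C1S was higher with the PPARα agonist (adjusted p = 0.0917), and with the PPARδ agonist SAMHD1 (0.176) and SP100 (0.0804) were lower and BATF2 (0.0898) higher. In that fit 1.85% of all genes were higher with the PPARα agonist, and 0.636% were lower and 1.39% higher with the PPARδ agonist.

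Of 12 genes that interferon-γ induces for chemokines and antigen presentation, all 12 had a PPARγ log2 fold change below 0, against 42.6% of all genes, with a median of −0.98. CXCL10, a T cell chemokine, had 21.9, 0 and 4.65 CPM in the controls and 0, 0 and 0.238 CPM with the PPARγ agonist, and was called lower (edgeR adjusted p = 0.187), with 0 counts in the control of cow 576 as well. B2M, PSMB9 and CXCL9 were also lower with the cow as a term (edgeR adjusted p = 0.00978, 0.0784 and 0.00576), CXCL9 with the PPARδ agonist as well. Of all genes the PPARγ agonist called 0.303% lower with treatment only. With the cow as a term the shares were 1.28% with the PPARγ and 0.636% with the PPARδ agonist.

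Marker lists of other cell types were set beside these values. With the PPARγ agonist and treatment only, 2 of 14 macrophage markers were called lower, 1 of 13 for T and NK cells, 1 of 6 for plasmacytoid dendritic cells, 1 of 7 for stellate cells and 0 of 8 endothelial, 4 B and plasma cell and 5 neutrophil markers. In the fit with the cow as a term these counts were 6, 2, 1, 2, 3, 0 and 2. Of all genes 0.303% were called lower with treatment only and 1.28% with the cow as a term. In the latter fit the neutrophil markers went both ways, MMP9 and S100A12 lower and S100A8 higher. The 14 macrophage markers summed to 739 to 1453 CPM in the controls, 435 to 1727 with the PPARα agonist, 218 to 540 with the PPARδ agonist and 238 to 492 with the PPARγ agonist, all 14 had a log2 fold change below 0 with both of the last agonists (46.1% of all genes with PPARδ and 42.6% with PPARγ), and none was at 0 in all libraries. C1QA fell with the PPARγ agonist (−2.01 ± 0.47, edgeR adjusted p = 0.0569), as did AIF1. The 13 markers of T and NK cells summed to 76.2 to 159 CPM in the controls and 23.8 to 32.2 with the PPARγ agonist, where CCL5 fell (−2.62 ± 0.60, adjusted p = 0.0501). Endothelial markers, of which FCN3 was at 0 counts in all libraries, summed to 441 to 674 CPM against 173 to 243, and stellate cell markers to 337 to 1215 against 125 to 219, where DCN fell. Hepatocyte markers ran from 2571 to 6483 CPM in the controls and from 5345 to 8408 with the PPARγ agonist. Of the 14, 1 had a PPARγ log2 fold change below 0, against 42.6% of all genes. Their median was 0.74, beside 0.83 with the PPARα and 0.41 with the PPARδ agonist. With the PPARγ agonist AHSG was called higher with treatment only (0.328% of all genes). With the cow as a term AHSG, TF, SERPINA1 and TTR were called higher (1.58%). Markers of plasmacytoid dendritic cells summed to 463 to 574 CPM in the controls and 190 to 226 with the PPARγ agonist, where TCF4 fell, while B and plasma cell and neutrophil marker sums overlapped the control. The neutrophil markers summed to 25.5 to 80.9 CPM in the controls and to 35.8 to 2131 CPM with the PPARα agonist, highest in cow 576, where ISG20 was lowest of the PPARα libraries. In the other cows the PPARα sums lay within the control range. With the PPARδ agonist the macrophage sum was below every control. In that group the sum of the interferon-stimulated genes overlapped the control, and 8 of the 38 genes lay below every control (21.1%, against 4.77% of all genes). The part of these cell types in the decrease with the PPARγ agonist was not tested. In bulk slices, fewer cells of a type and less RNA per cell cannot be told apart.

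**Figure D4:**
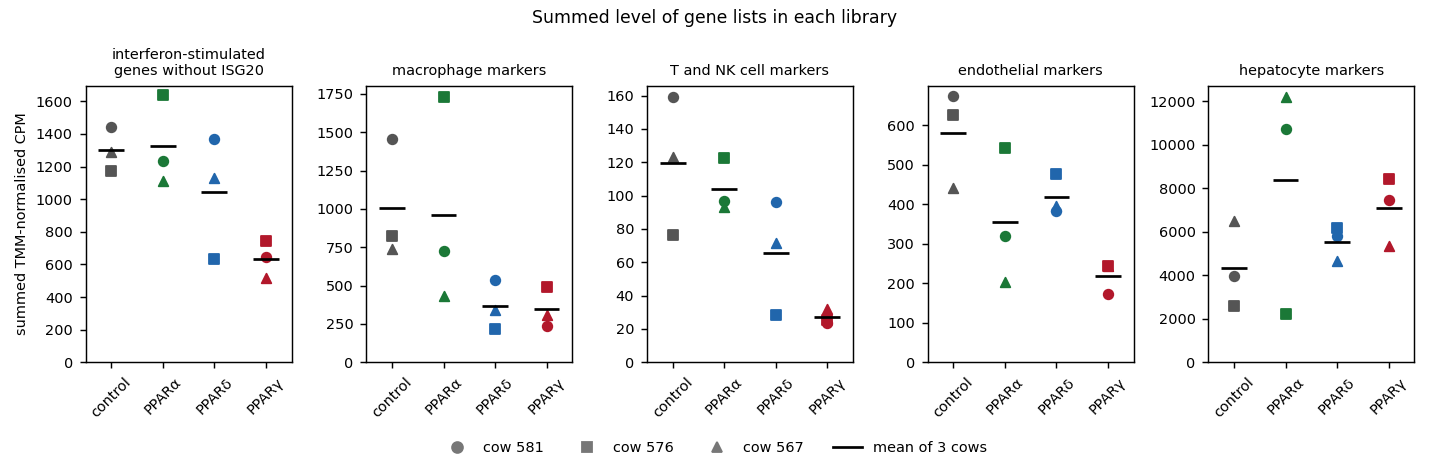
Summed TMM-normalised CPM in each library (points, by cow; bars are means of 3 cows) of the interferon-stimulated genes without ISG20 and of 4 cell type marker lists. The PPARγ libraries lie below the control in the first 4 panels, and the PPARδ libraries lie below it for the macrophage markers.

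Several of the genes lie against each other in RefSeq's annotation of the newer bovine assembly (ARS-UCD2.0), where 38 of the 39 were found by symbol. MX1 and MX2, RSAD2 and CMPK2, OAS1X, OAS1Y and OAS1Z, and PARP9, DTX3L and PARP14 are neighbours, and PARP9 overlaps DTX3L and OAS1Y overlaps OAS2. Overlaps with genes outside the list are those of ISG20 with LOC616063, IFIT2, IFIT3 and IFIT5 with LIPA, EIF2AK2 with GPATCH11 and LOC112448863, PARP14 with HSPBAP1, IRF9 with RNF31, STAT2 with IL23A and IRF1 with RAD50. The sources used here do not state the strand setting of the counting, so reads shared by overlapping genes, and by near-identical OAS1 copies, could be placed on either, and the values of the OAS genes and of every gene with an overlap named here are uncertain for this reason.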

How the data were processed

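Gene counts of 3′ RNA libraries (QuantSeq 3′ FWD) were read as deposited. Per the labels and the study's methods, the authors trimmed reads with Trimmomatic 0.39, used STAR 2.7.1 for alignment (bovine genome ARS-UCD1.2) and deposited raw counts per gene. The column names carry the name of STAR's per-gene table, while the methods name StringTie 2.0 for counting; neither gives the strand setting. Rows that name no gene were left out of library sizes (reads with no feature, 29.1% to 54.1% of a library).

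Libraries were grouped by the treatment and cow in their labels. Genes with a count above 4 in at least 1 of 12 libraries were tested with edgeR 4.0.16 (R 4.3.3, TMM scaling, quasi-likelihood F test, treatment only, 4 groups with 1 estimate of spread), with Benjamini-Hochberg adjustment over all 19824 genes and a threshold of 0.2, as in the study. SE is the log2 fold change divided by the square root of F. Pairing by cow comes from the labels, and a second fit had the cow as a term. Libraries of the same cow correlated in their deviations from group means at a median r of 0.11 (−0.03 to 0.28, 18 pairs), against −0.06 for different cows. Deviations from a mean of 3 cows sum to 0, so a positive value within cows brings a negative one between cows. The value for different cows is therefore no separate evidence of pairing. DESeq2 1.42.0, other scalings, other filters, all 16 libraries and leaving out each library or cow were alternatives. Scripts were tested on simulated data. Leaving out the 3 marked libraries was chosen after seeing the data. The 41 genes, the further lists and the markers were chosen with earlier results of these data known. All 41 genes were accounted for by role, with values in every library for those called in either fit against control, the 3 with the smallest p for each agonist and the gene with the highest level in each role; genes of other lists were named where called or where they are interferons or receptors. One gene of the signalling list is not reported here. No fold change is printed for a member at 0 counts in a whole group, while medians over the 38 include its fitted value. Sequences were not used here.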

Additional observations from a re-analysis of the deposited data

Results flagged for a closer look

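The libraries of cow 574, which enter no comparison, had 772012 to 970406 gene counts, and 79.6% to 84.3% of their reads had no feature. Their values are CPM without TMM scaling, 1 library a group, and the exact Poisson 95% intervals behind the following statements cover counting error only. A gene is given where an agonist library lay above the control library of that cow with intervals that did not overlap. With the PPARα agonist these were IFIH1 (40.2 CPM, control 15.1), IRF7 (10.4 CPM, control 0 counts), ISG15 (85.5 CPM, control 18.4), SAMD9 (102.3 CPM, control 31.4), IFI6 (32.4 CPM, control 8.66) and EPSTI1 (60.9 CPM, control 25.97). With the PPARδ agonist they were IRF7 (12.4 CPM, control 0 counts), GBP5 (12.4 CPM, control 0 counts), IFIT5 (49.5 CPM, control 4.33), OAS2 (9.27 CPM, control 0 counts) and RSAD2 (15.5 CPM, control 2.16). With the PPARγ agonist no gene lay above. Below the control by the same rule were DDX58, STAT2, IFIT2 and ADAR with the PPARδ agonist, ZBP1 and IRF1 with the PPARα agonist, and 9 genes with the PPARγ agonist, among them MX1 (25.0 CPM, control 68.2), IFI27 (9.52 CPM, control 34.6) and PARP14 (40.5 CPM, control 80.1). How many of all genes lay above or below by this rule was not counted. These CPM divide by totals that include RN18S1. Outside RN18S1 lay 652064 of 924251 gene counts in the control of cow 574 and 465038 of 839943 with the PPARγ agonist. This scaling lowers the PPARγ values against the control, and intervals without RN18S1 were not made. ISG20 had 5 counts in the control of cow 574 and 8, 9 and 4 with the PPARα, PPARδ and PPARγ agonists.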

How the results depend on the processing

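The count of genes called depended on the settings, and the cause was not tested. Against the 3 calls of the PPARγ agonist, the replicate block (cow as a term) gave 12, DESeq2 10, DESeq2 size factors 6, upper quartile scaling 6, library totals 1, no filter 11, filterByExpr 0, all 16 libraries 0, the 2 groups alone 15, the 3 marked libraries left out 12, an adjusted p under 0.05 1 and an unadjusted p under 0.05 15. For the PPARδ agonist (1 call) the same settings gave 3 with the replicate block, 2 with DESeq2, 0 with library totals, 3 with no filter, 0 with filterByExpr, 0 with all 16 libraries, 2 with the 2 groups alone, 3 without the marked libraries and 6 unadjusted. For the PPARα agonist (1 call) filterByExpr, all 16 libraries, the 2 groups alone, an adjusted p under 0.05 and leaving out the marked libraries gave 0 each, the last also with the replicate block, and unadjusted p gave 3. At an unadjusted edgeR p under 0.05, 7.88% of all genes passed for PPARα, 7.82% for PPARδ and 6.79% for PPARγ. The PPARα count of 3 (7.89%) was thus at the share of all genes. In the same order the replicate block called 2.68%, 2.03% and 2.86% of all genes, and DESeq2 1.61%, 2.64% and 1.87%. For the other settings the share of all genes is not given here. Between agonists the replicate block gave 5 for PPARγ against PPARα, 2 for PPARγ against PPARδ (DESeq2 3) and 1 for PPARδ against PPARα.

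Leaving out 1 library or cow gave 0 to 8 calls for PPARα, 0 to 6 for PPARδ, 0 to 19 for PPARγ, 0 to 8 for PPARγ against PPARα, 0 to 2 for PPARγ against PPARδ and 0 to 1 for PPARδ against PPARα. With the replicate block kept it gave 1 to 10, 1 to 6 and 2 to 19 against control. The shares of all genes called in these refits are not given here. In fits with treatment only, the PPARα median log2 fold change was 0.57 with library totals and −0.00583 to 0.29 with a library or cow left out. That of PPARδ was −0.56 to 0.04 and that of PPARγ −1.29 to −0.96. ISG20 with the PPARα agonist was −0.35 without the marked libraries and −0.32 with the replicate block, where 1 PPARα library remained, itself above its own cow's control. No other fold change against control followed through the alternatives reversed. OAS1X, OAS1Z and OAS2 had at most 34 counts in any of the 12 libraries.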
